A study of Rattus norvegicus with 4 samples.

Results

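Mast cells of rat skin were the cells examined, taken from single-cell RNA libraries of skin and of subcutaneous fascia, the loose connective tissue sheet beneath it. The 4 libraries, 2 of skin and 2 of fascia, came from wild-type rats of unstated age, sex and strain, and the labels do not say whether libraries of 1 tissue came from different animals. All tissue from the abdominal midline was minced, digested with collagenase and elastase and passed through a dead-cell removal step, with no sort or gate for a cell type. A barcode was taken as a skin mast cell when it had at least 500 genes, at most 20% mitochondrial UMIs, at least 3 UMIs of Cpa3, no UMI of Cd3d, Cd3e or Cd3g, and under 50 UMIs of Col1a1 plus Col3a1. A UMI is a molecular tag that marks 1 captured RNA molecule. By that rule 75 of 23902 kept skin barcodes were mast cells, 70 in skin 1 and 5 in skin 2, among 37722 kept barcodes in all 4 libraries.

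Mast cells are resident leukocytes that mature in the tissue under stem cell factor, the ligand of the receptor Kit. They store histamine, serotonin, proteoglycan and neutral proteases in granules, and release them when antigen crosslinks IgE on the high-affinity IgE receptor or when ligands engage G-protein-coupled receptors. In rodent skin they belong to the connective tissue type, which holds chymases, tryptases and carboxypeptidase A3, the product of Cpa3, and on stimulation they also make lipid mediators, chemokines and cytokines.

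The 2 skin libraries did not contribute evenly, and this limits every comparison. Skin 1 held 7460 kept barcodes with a median of 9040 UMIs, and skin 2 held 16442 with a median of 2353. The 70 mast cells of skin 1 had a median of 4167 UMIs (1280 to 13134) and 1400 genes, and summed to 337206 UMIs. The 5 mast cells of skin 2 had a median of 3345 UMIs and summed to 16177, so that 1 UMI there equals 61.8 CPM (UMIs per 1000000 UMIs of the summed cells). Skin 1 and skin 2 shared 30 barcode sequences among the kept barcodes, and 1 of these was a mast cell in either library. Scrublet marked under 0.5% of barcodes in either skin library and so had not worked there, and 6 of the 70 mast cells of skin 1 and none of those in skin 2 were among the top-scoring barcodes that were left out as an alternative.

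The start regions of the 3 genes whose UMIs mark these cells most clearly are shown because they serve as the identity of the population. They are the 250 bases upstream of the annotated start of Cpa3 (chr2:104673238-104673487), Mcpt1l1 (chr15:33876896-33877145) and Cma1 (chr15:33390134-33390383), all on the minus strand of GRCr8, from RefSeq, written 5′ to 3′. Capitals mark a GATA-type sequence on either strand, which is AGATAA or the same letters with T as the first base, G as the last base, or both.
Cpa3: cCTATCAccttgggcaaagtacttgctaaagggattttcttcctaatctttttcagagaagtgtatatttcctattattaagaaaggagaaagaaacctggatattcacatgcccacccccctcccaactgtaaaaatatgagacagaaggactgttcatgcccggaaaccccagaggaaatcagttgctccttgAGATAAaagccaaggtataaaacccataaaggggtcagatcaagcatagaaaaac
Mcpt1l1: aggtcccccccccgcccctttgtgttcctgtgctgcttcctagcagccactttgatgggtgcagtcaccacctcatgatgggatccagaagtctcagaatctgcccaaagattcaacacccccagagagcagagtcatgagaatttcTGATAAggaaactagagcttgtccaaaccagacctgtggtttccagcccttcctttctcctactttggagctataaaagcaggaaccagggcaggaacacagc
Cma1: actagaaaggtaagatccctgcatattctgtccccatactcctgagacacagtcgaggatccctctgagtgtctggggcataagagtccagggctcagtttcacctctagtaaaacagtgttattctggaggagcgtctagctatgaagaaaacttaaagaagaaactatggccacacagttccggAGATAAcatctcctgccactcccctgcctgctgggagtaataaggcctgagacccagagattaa
Counted from the annotated start, Cpa3 had a match beginning at -249 and another at -55, Mcpt1l1 had 1 at -103, and Cma1 had 1 at -64. Such a sequence stood in 27.0% of the 33469 RefSeq upstream windows of that length. A match is a description of the letters and no evidence of binding. The upstream windows of Fcer1a and Mrgprb3 each held 1 match, and those of Hdc, Tph1, Slc18a2, Tacr1 and Milr1 held 0. Mcpt1l1 and Cma1 both lie on chromosome 15.

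Chymase transcripts that the rule did not use were present in each member, and also in some barcodes just below the rule's limit. Cpa3, which chose the cells, encodes a granule exopeptidase and ranged from 4 to 61 UMIs per cell in skin 1, with a median of 15. Mcpt1l1, which RefSeq lists with the synonym rMCP-1, a chymase of rat connective tissue mast cells, ranged from 5 to 156 UMIs per cell with a median of 41.5. Cma1, mast cell chymase, ranged from 4 to 188 with a median of 23. Each of the 75 cells had at least 3 UMIs of Mcpt1l1 plus Cma1, neither of which the rule used. In the 5 cells of skin 2, Cpa3 was at 10, 10, 10, 13 and 3 UMIs, Mcpt1l1 at 34, 22, 32, 24 and 4, and Cma1 at 19, 33, 30, 19 and 1. The last of these cells was the weakest member and also carried 80 keratin UMIs (Krt5, Krt10, Krt1 and Krt15).

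**Figure D1:**
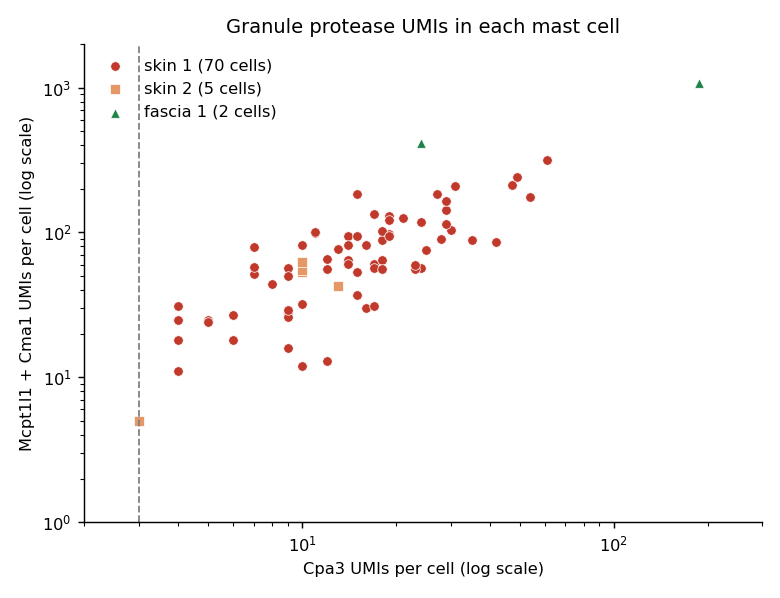
Each point is 1 cell, with Cpa3 UMIs on the x axis and Mcpt1l1 plus Cma1 UMIs on the y axis, both on log scales. Colours and shapes give the library, and the dashed line is the minimum of 3 Cpa3 UMIs. The lowest skin 2 cell has 3 Cpa3 UMIs and 5 protease UMIs, and the 2 fascia barcodes lie above the skin cells of like Cpa3 count.

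Just below the limit the picture differed by library. In skin 1, 3 barcodes had 2 Cpa3 UMIs and all 3 had at least 3 UMIs of Mcpt1l1 plus Cma1, while of 12 barcodes with 1 Cpa3 UMI 1 did. In skin 2, 2 of 4 barcodes with 2 Cpa3 UMIs, 3 of 22 with 1, and 8 of 16411 with 0 reached that protease count. The members of skin 1 held 98.57% of all Cpa3 UMIs, 97.4% of Mcpt1l1 and 98.09% of Cma1 among its kept barcodes. The members of skin 2 held 60.53%, 55.77% and 51.52% of the same 3 genes, so the rule left part of the protease signal of skin 2 outside.

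The share of mast cells was 0.938% of kept barcodes in skin 1 (exact 95% interval 0.732 to 1.18) and 0.0304% in skin 2 (0.0099 to 0.071). In fascia it was 0.0294% in fascia 1 (2 of 6812, 0.0036 to 0.106) and 0 of 7008 in fascia 2, which allows a share of up to 0.0428% by a floor of 3 counts and 0.0526% by the exact interval. Skin 1 was above the other 3 libraries, and skin 2 and fascia 1 did not differ beyond counting error. The skin mean exceeded the fascia mean by 0.470 percentage points, with a two-sided exact permutation p of 0.333 (n = 2 libraries a tissue), the smallest p that 2 against 2 allows. Without skin 1 the difference was 0.0157 points. With a minimum of 10 Cpa3 UMIs, or with barcodes of at least 200 genes, the share of skin 2 fell below that of fascia 1 (0.0243% and 0.0294%, and 0.0289% and 0.0436%), and the exact permutation p was 0.667. Among barcodes with a UMI of Ptprc, the leukocyte antigen CD45, mast cells were 8.77% (37 of 422) in skin 1, 0.323% (2 of 619) in skin 2, and 0 of 2073 and 0 of 3140 in fascia, which allow up to 0.145% and 0.0955% by the same floor of 3 counts. The intervals cover counting error only.

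The 2 fascia barcodes that met the same limits carried 188 and 24 Cpa3 UMIs, 701 and 291 of Mcpt1l1 and 369 and 121 of Cma1, in 8717 and 2809 UMIs. The larger of them was marked as a doublet by Scrublet. With 2 barcodes in 1 library, no comparison of gene levels between skin and fascia mast cells was made.

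For gene levels the mast cells of each skin library were summed and set against 2 leukocyte populations of the same libraries. Skin T cells (56 and 114 cells in skin 1 and skin 2) had at least 3 Cd3 UMIs. Skin MHC class II cells (249 and 104 cells) had a Ptprc UMI and at least 20 UMIs of Cd74 and 4 RT1 class II genes. Neither had 3 or more Cpa3 UMIs, and their median depths were 5834 and 3596 UMIs for T cells and 8673 and 6198 for MHC class II cells. Levels are CPM of the summed cells, and a log2 fold change is mast cells over the other population from edgeR's quasi-likelihood test with the library as a block. The fit also multiplies the UMI total of each sum by a scaling factor (TMM), which CPM leave out. This factor was 0.732 for the mast cells of skin 1, 1.71 for those of skin 2 and 0.894 to 1.05 for the other sums. As all 3 populations were chosen by measured genes, the genes of those limits are described without a test, and the rest describe cells so chosen.

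Of 11603 genes tested, 1144 (9.86%) differed between mast cells and T cells at an adjusted p under 0.05, 581 higher and 563 lower in mast cells, 5.01% and 4.85% of the genes. Against MHC class II cells 1499 (12.9%) differed, 595 higher and 904 lower, 5.13% and 7.79%. The median log2 fold change over all genes was -0.30 against T cells and -0.41 against MHC class II cells, and scaling by RLE moved these to -0.44 and -0.51. These shares over all genes are the background for the counts called in each gene list below. Both comparisons use the same mast cell sums. Without skin 1, where the 5 cells of skin 2 stand alone, 156 genes were called against T cells and 146 against MHC class II cells. That fit assumes that the lone mast cell sum varies like the sums of the other populations. Its median log2 fold change over all genes was -7.17 against T cells and -7.64 against MHC class II cells. Calls kept or lost without skin 1 carry this limit throughout. Some genes, such as Ms4a2, Fcer1a and Mrgprb3, did not pass the filter on low counts there and were not tested. With the 5-cell mast sum of skin 2 left out instead, a fit added after the data were seen, 926 and 1253 genes were called. Among the named genes followed in the alternatives, DESeq2 did not call Ms4a2, Fcer1a, Tph1, Mrgprb3, Dnase2b, Sgcz, Synpr, Trim6, AC103574.1 and AABR07017241.1 in either comparison. It also did not call Ccl1, Ccl3, Il2 and Il18r1 against T cells. Against MHC class II cells it did not call Areg, Ccl7, Cd300a, Csf2rb, Cxcl1, Hpgds, Il1rl1, Il4r, Lmo4, P2ry14, Tbxas1, Tlr2 and Vegfa. A fitted fold change against a population with 0 UMIs depends on the fit's prior count, so such genes are given as a bound, with the 0 set to 3 UMIs over both skin libraries.

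Granule chymases were close to 0 outside mast cells. Mcpt1l1 stood at 10222 and 7171 CPM in mast cells of skin 1 and skin 2, against 2.71 and 0 in T cells, 0.731 and 0 in MHC class II cells and 1.06 and 1.11 in all other kept skin barcodes. Over both libraries 3563 UMIs in mast cells faced 1 in T cells and 2 in MHC class II cells, ratios of 9120 (1640 to 360000) and 19800 (5490 to 164000) with 95% counting intervals. Near-identical copies of the Mcpt1 family exist, so reads could have been split among them and the identity of this transcript is uncertain; Mcpt1l2 had 0 UMIs in mast cells, and of 2 entries named Mcpt1l3 1 had 0 and the other 1 UMI in skin 1. Cma1 was at 6711 and 6305 in mast cells and at 0 in T cells and MHC class II cells of both libraries. That is at least 2020-fold higher than in T cells and at least 8780-fold higher than in MHC class II cells (adjusted p = 3.47e-14 and 2.44e-16). Cpa3, which the rule used, was at 3668 and 2844.

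Tryptase transcripts were scarce beside the chymases' own counts. Tpsb2, which encodes tryptase beta 2, had 50.4 CPM in skin 1 and 0 in skin 2, and Tpsab1, another tryptase gene, had 8.90 and 61.8. Mcpt4, a chymase-family gene, had 62.3 in skin 1 and 0 in skin 2. None of the 3 had a UMI in T cells or MHC class II cells, and none passed the filter on low counts. Tpsg1, Mcpt9, Mcpt4l1, Ctsg, Gzmc and Prss34 had 0 UMIs in mast cells, which allows up to 8.49 CPM over both skin libraries. Of the 26 listed protease genes 17 were in the table used, and of 6 tested without Cpa3, Mcpt1l1 and Cma1 were called higher in both comparisons, also without skin 1. The median over these 6 was 0.20 against T cells and 0.68 against MHC class II cells (0.34 and -0.01 with 0 counts set to the floor), beside the medians over all genes above.

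Amine synthesis and storage genes were high in mast cells of both libraries. Hdc, histidine decarboxylase, which makes histamine, was at 1109 and 865 CPM in mast cells of skin 1 and skin 2, against 0 and 0 in T cells and 0.731 and 0.835 in MHC class II cells. It was at least 331-fold higher than in T cells (adjusted p = 1.38e-16). Tph1, tryptophan hydroxylase 1, the rate-limiting enzyme of serotonin synthesis outside the brain, was at 492 and 742 in mast cells and at 0 in both other populations of both libraries, at least 152-fold and 661-fold higher, with DESeq2 adjusted p-values of 0.129 and 0.0634. Slc18a2, the vesicular monoamine transporter that loads histamine and serotonin into granules, was at 101 and 247 in mast cells, against 0 and 1.87 in T cells and 2.19 and 0 in MHC class II cells. In each of these 3 genes both mast cell sums lay above the other populations' sums.

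The granule matrix genes were less exclusive. Srgn encodes serglycin, the core proteoglycan that binds proteases and amines in the granule, and was at 142 and 124 CPM in mast cells, against 548 and 496 in T cells and 18.995 and 57.6 in MHC class II cells. It was higher than in MHC class II cells (log2 fold change 2.22, SE 0.61, adjusted p = 0.00694), with an adjusted p of 0.918 without skin 1 and 0.269 without barcodes of 20 or more keratin UMIs. Against T cells its log2 fold change of -1.53 (SE 0.54) missed the threshold at an adjusted p of 0.0618. It was called lower with RLE scaling (0.0266), with DESeq2 (0.0404), without barcodes of 20 or more keratin UMIs (0.0419), and without skin 2, fascia 1 or fascia 2 (0.0266, 0.0286 and 0.0288), and not under the other alternatives, among them without skin 1 (0.0658) and with the mast sum of skin 2 left out (0.231). Ndst2, which sulfates heparin in mast cells of mice, was at 89.0 and 185 in mast cells, against 16.3 and 3.73 in T cells and 16.4 and 5.01 in MHC class II cells. Cd63, a granule membrane tetraspanin exposed on degranulation, was at 1631 and 1607 in mast cells, against 206 and 226 in T cells and 2876 and 1170 in MHC class II cells. Of 11 tested genes of granule matrix and amine storage, 6 were higher than in T cells and 0 lower, and 7 were higher than in MHC class II cells and 1 lower, Lamp1. Their median log2 fold change was 1.85 against T cells and 2.95 against MHC class II cells (2.30 and 3.48 with the floor). Without skin 1, Cd63 and Hdc were still called against T cells and Hdc against MHC class II cells.

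**Figure D2:**
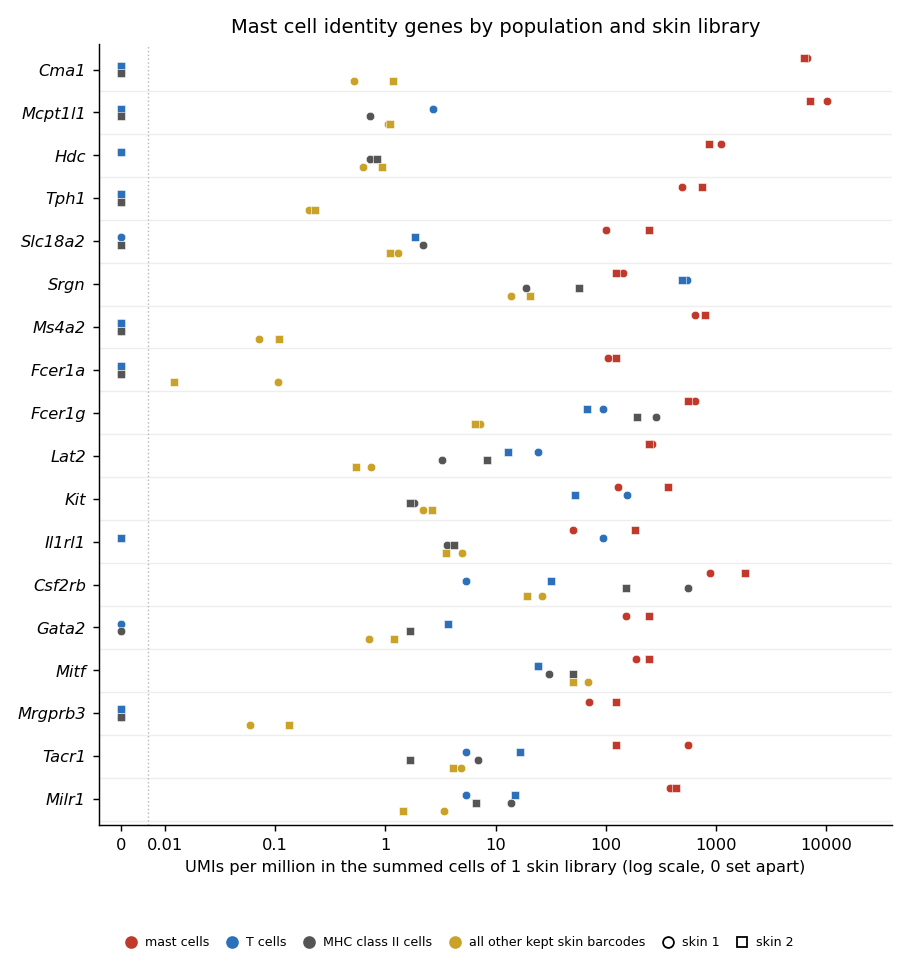
CPM (log scale, 0 set apart at the left) in the summed cells of 1 skin library for 18 genes, with circles for skin 1 and squares for skin 2. Mast cells are red, T cells blue, MHC class II cells grey and all other kept skin barcodes yellow. Cma1, Tph1, Ms4a2, Fcer1a and Mrgprb3 are at 0 in T cells and MHC class II cells, while Srgn is higher in T cells and Kit overlaps with T cells.

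The IgE receptor was represented by its alpha, beta and gamma chains. Ms4a2, the beta chain, was at 641 and 804 CPM in mast cells and at 0 in T cells and MHC class II cells, at least 195-fold and 850-fold higher (edgeR adjusted p = 1.38e-16 and 1.35e-21, DESeq2 adjusted p = 0.118 and 0.0562). Fcer1a, the IgE-binding alpha chain, was at 104 and 124 in mast cells and at 0 in both other populations, at least 31.6-fold and 137-fold higher, with DESeq2 adjusted p-values of 0.274 and 0.157. Fcer1g, the signalling gamma chain shared with other Fc receptors, was at 646 and 556 in mast cells, against 95.0 and 67.2 in T cells and 288 and 190 in MHC class II cells. Its log2 fold change was 2.92 (SE 0.55, adjusted p = 6.09e-05) against T cells and 1.22 (SE 0.50, adjusted p = 0.0996) against MHC class II cells, and this last difference was not called by edgeR although the sums did not overlap. DESeq2 called it.

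Downstream of the receptor, the adaptor Lat2 (also known as NTAL) was at 264 and 247 CPM in mast cells, against 24.4 and 13.1 in T cells and 3.29 and 8.35 in MHC class II cells. Lyn, the Src-family kinase that phosphorylates the receptor chains, was at 670 and 309 in mast cells, against 48.9 and 11.2 in T cells. It was called higher than in T cells with a log2 fold change of 4.31 (SE 0.60), and not against MHC class II cells. Gab2, an adaptor for phosphoinositide 3-kinase, was at 383 and 1484 in mast cells, against 258 and 144 in T cells, and was not called against MHC class II cells. Syk, the kinase recruited by the gamma chain, had 2.97 and 0 CPM in mast cells, against 8.14 and 3.73 in T cells. Of 16 tested genes of the receptor and its proximal signalling, 6 were higher than in T cells (Fcer1a, Fcer1g, Gab2, Lat2, Lyn and Ms4a2) and 0 lower. Against MHC class II cells 5 were higher (Fcer1a, Lat, Lat2, Lcp2 and Ms4a2) and 1 lower, Plcg2. The median log2 fold changes were 0.79 and 0.52. Without skin 1, Fcer1a and Ms4a2 could not be tested, and of the other 4 genes called in each comparison Gab2 and Lyn were still called against T cells and 0 against MHC class II cells; Gab2 was not called against T cells with the mast sum of skin 2 left out.

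Kit, the receptor for stem cell factor and the other marker of these cells, was shared with T cells. It was at 130 and 371 CPM in mast cells of skin 1 and skin 2, against 157 and 52.2 in T cells, 1.83 and 1.67 in MHC class II cells and 2.17 and 2.67 in all other kept skin barcodes. A Kit UMI was present in 28 of 70 and 4 of 5 mast cells, 21 of 56 and 11 of 114 T cells, and 5 of 249 and 2 of 104 MHC class II cells. After thinning each cell of skin 1 to 2000 UMIs, the shares were 22.9% of 65 mast cells, 21.6% of 54 T cells and 0.31% of 246 MHC class II cells. The mast cells of skin 1 held 15.17% of the Kit UMIs of that library and those of skin 2 held 2.34%. Kit was higher than in MHC class II cells (log2 fold change 6.44, SE 0.59, adjusted p = 2.76e-13; 0.0538 without skin 1). Against T cells the log2 fold change was 0.67 (SE 0.44, adjusted p = 0.406), and the sums overlapped.

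Among cytokine receptors, Csf2rb, the common beta chain of the IL-3, IL-5 and GM-CSF receptors, was at 887 and 1854 CPM in mast cells, against 5.43 and 31.7 in T cells and 557 and 152 in MHC class II cells. It was higher in both comparisons (log2 fold change 5.72, SE 0.61, and 1.67, SE 0.47; adjusted p = 8.89e-11 and 0.00862), and was not called against MHC class II cells without skin 2 (adjusted p = 0.135) or without barcodes of 20 or more keratin UMIs. Il1rl1, the receptor for IL-33, was at 50.4 and 185 in mast cells, against 95.0 and 0 in T cells and 3.65 and 4.18 in MHC class II cells, and was called higher against MHC class II cells, but not with the mast sum of skin 2 left out. Il4r was at 211 and 61.8 in mast cells, against 69.8 and 100 in MHC class II cells; its call as higher rested on skin 1 and its sign turned without it. The shares over all genes tested were 5.01% higher and 4.85% lower than in T cells, and 5.13% and 7.79% against MHC class II cells. Of 12 tested receptors 2 were higher and 2 lower (Ifngr1 and Il18r1) than in T cells. Another 5 were called higher and 2 lower (Ifngr1 and Il10ra) in the comparison of these receptors with MHC class II cells. The median log2 fold changes were 0.42 and -0.90. Without skin 1, of these 4 and 7 calls only that of Csf2rb held in each comparison, with adjusted p-values for Ifngr1 of 0.111 against T cells and 0.206 against MHC class II cells and for Il1rl1 of 0.522 against MHC class II cells.

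Of 16 transcription factors measured, 16 had a UMI in mast cells of skin 1 and 8 in those of skin 2. Gata2, required for mast cell development in mice, was at 154 and 247 CPM in mast cells, against 0 and 3.73 in T cells and 0 and 1.67 in MHC class II cells. The ratio of 56 UMIs to 2 was 71.7 (18.9 to 606) against T cells and 312 (82.4 to 2640) against MHC class II cells. Mitf, whose loss reduces mast cells in mice, was at 187 and 247 in mast cells, against 24.4 and 24.3 in T cells and 30.3 and 50.1 in MHC class II cells. Zeb2, a zinc-finger repressor, was at 685 and 1545 in mast cells, against 27.1 and 74.6 in T cells and 147 and 119 in MHC class II cells. Spi1, encoding the myeloid factor PU.1, was higher than in T cells and lower than in MHC class II cells, with 26.7 and 61.8 in mast cells, 2.71 and 0 in T cells and 171 and 94.4 in MHC class II cells; its call against T cells was lost without skin 2 (adjusted p = 0.154). Of 14 tested factors 6 were higher than in T cells and 1 lower (Ikzf1), and 6 were higher than in MHC class II cells and 2 lower (Bhlhe40 and Spi1). The median log2 fold changes were 3.18 and 0.85 (1.88 and 0.85 with the floor). Without skin 1, Zeb2 was still called against T cells, and Bhlhe40 and Zeb2 against MHC class II cells.

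Receptors that activate mast cells without IgE were detected for a neuropeptide and for basic secretagogues. Tacr1, the substance P receptor NK1, was at 560 and 124 CPM in mast cells, against 5.43 and 16.8 in T cells and 6.94 and 1.67 in MHC class II cells. Its log2 fold change was 5.11 (SE 0.56, adjusted p = 1.81e-10) against T cells and 6.57 (SE 0.50, adjusted p = 2.45e-16) against MHC class II cells; without skin 1 these adjusted p-values were 0.813 and 0.570. Mrgprb3, a rat receptor of the Mas-related family to which the mouse secretagogue receptor Mrgprb2 belongs, was at 71.2 and 124 in mast cells and at 0 in both other populations, at least 22.2-fold and 96.5-fold higher, with DESeq2 adjusted p-values of 0.298 and 0.174. Without skin 2 the calls of Mrgprb3 (adjusted p = 0.0658), Adora2a and S1pr1 against T cells were lost. Among 36 listed receptors 27 were in the table used, and 13 of these had 0 UMIs in mast cells, among them C3ar1, the complement C3a receptor, Tlr2 and Mrgprb5. Over all genes tested 5.01% were called higher and 4.85% lower than in T cells, and 5.13% and 7.79% than in MHC class II cells. Of 23 receptors tested, 3 were higher than in T cells and 1 lower (S1pr1). Against MHC class II cells 5 receptors were higher and 2 lower (P2ry14 and Tlr2), so the lower counts were near the shares over all genes. The median log2 fold changes were 0 and -0.61 (0.91 and -0.03 with the floor), and none of these calls held without skin 1, where Mrgprb3 could not be tested.

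Milr1, an inhibitory receptor (allergin-1) that restrains IgE signalling in mice, was at 383 and 433 CPM in mast cells, against 5.43 and 14.9 in T cells and 13.9 and 6.68 in MHC class II cells. It was higher in both comparisons (log2 fold change 5.17, SE 0.49, and 5.14, SE 0.40), and without skin 1 its adjusted p was 0.0520 against T cells and 0.0294 against MHC class II cells. Of 10 tested inhibitory receptors 3 were higher than in T cells (Cd33, Lilrb4 and Milr1). Milr1 was higher than in MHC class II cells while Cd300a and Fcgr2b were lower. Without skin 2, Cd33 and Lilrb4 were not called. The median log2 fold changes of the 10 receptors were 0.60 and -1.95 (1.77 and -0.26 with the floor). The secretory GTPase genes Rab27a and Rab27b, which dock granules, were at 157 and 495 and at 234 and 433 in mast cells, and Rab27b was at 38.0 and 1.87 in T cells and 16.1 and 9.19 in MHC class II cells. Of 17 tested exocytosis genes 1 was higher than in T cells, Rab27b, and 3 were higher than in MHC class II cells (Rab27a, Rab27b and Rab37). Over all genes tested 5.01% and 5.13% were higher. The median log2 fold changes of the 17 genes were -0.27 and -0.22 (0 and -0.25 with the floor), beside -0.30 and -0.41 over all genes. The SNARE gene Vamp8, at 104 and 185 in mast cells, 176 and 149 in T cells and 190 and 191 in MHC class II cells, was not called in either comparison.

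Among the cytokines and growth factors, whose 25 measured genes summed to 15513 and 22810 CPM in mast cells of skin 1 and skin 2, most UMIs were of Ccl2. This monocyte-attracting chemokine gene held more UMIs than any other gene in the sum of skin 1 mast cells. Ccl2 was at 13499 and 20770.2 CPM in mast cells of skin 1 and skin 2, against 5.43 and 76.5 in T cells, 744 and 657 in MHC class II cells and 620 and 413 in all other kept skin barcodes. Both mast cell sums were above all others. The log2 fold change was 8.64 (SE 0.97, adjusted p = 4.17e-10) against T cells and 4.35 (SE 0.78, adjusted p = 2.12e-05) against MHC class II cells, and both held without skin 1 (adjusted p = 0.000152 and 0.000782). In skin 2, 1 of the 5 cells held 293 of the 336 Ccl2 UMIs, and the sum of the other 4 was at 3862 CPM. The calls without skin 1 include that cell. The 75 mast cells held 7.74% and 0.95% of all Ccl2 UMIs of skin 1 and skin 2, so most Ccl2 in skin was counted in other cells.

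Ccl7, a related chemokine gene, was at 308 and 804 CPM in mast cells, against 2.71 and 50.4 in T cells and 181 and 134 in MHC class II cells. Against MHC class II cells its call (log2 fold change 1.37, SE 0.44, adjusted p = 0.0271) was lost without skin 1 (adjusted p = 0.145) and without barcodes of 20 or more keratin UMIs. Csf1, the macrophage growth factor, was at 492 and 247 in mast cells, against 27.1 and 39.2 in T cells and 11.7 and 27.6 in MHC class II cells. Lif, a cytokine of the IL-6 family, was at 635 and 247 in mast cells, against 0 and 0 in T cells and 12.4 and 2.51 in MHC class II cells, at least 186-fold higher than in T cells. Osm, oncostatin M of the same family, was at 299.5 and 556 in mast cells, against 0 and 3.73 in T cells and 7.31 and 15.9 in MHC class II cells. In these genes too the mast cell sums lay above the other populations' sums. Csf1 and Lif were called in both comparisons, and without skin 1 the adjusted p-values of Lif were 0.170 and 0.213, of Osm 0.0536 and 0.0942, and of Csf1 0.617 and 0.493.

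Several cytokines often named for mast cells were not detected. Il4, Il5, Il6, Il9, Il1b and Csf2 had 0 UMIs in the mast cells of both libraries, which allows up to 8.49 CPM over both. Il13 had 2.97 in skin 1 and 0 in skin 2, and Tnf 26.7 and 0, against 16.3 and 35.5 in T cells and 24.8 and 27.6 in MHC class II cells. Areg, an EGF-family ligand, and the chemokine gene Ccl3 had 0 in mast cells, and Areg was at 315 and 56.0 in T cells and 40.5 and 104 in MHC class II cells. Among all genes tested 5.01% were higher and 4.85% lower than in T cells, and 5.13% and 7.79% than in MHC class II cells. Of 20 tested cytokines and growth factors, Ccl2, Ccl7, Csf1, Lif and Osm were higher in each comparison. Lower than in T cells were 5 of them (Areg, Ccl1, Ccl3, Ccl4 and Il2). Lower than in MHC class II cells were 7 (Areg, Ccl3, Ccl4, Cxcl1, Cxcl2, Il1b and Vegfa). The median log2 fold changes were -0.17 and -0.55 (-0.23 and -1.02 with the floor). Without skin 1, Ccl2 and Ccl7 were still called against T cells and Ccl2 against MHC class II cells. Without skin 2, Ccl3, Ccl4 and Il2 were not called against T cells (adjusted p = 0.646, 0.388 and 0.107), nor Areg (0.113) and Vegfa (0.0501) against MHC class II cells. With the mast sum of skin 2 left out, Areg, Ccl1, Ccl3, Ccl4 and Il2 were not called against T cells, nor Areg, Ccl3, Ccl4, Ccl7, Cxcl1 and Vegfa against MHC class II cells.

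**Figure D3:**
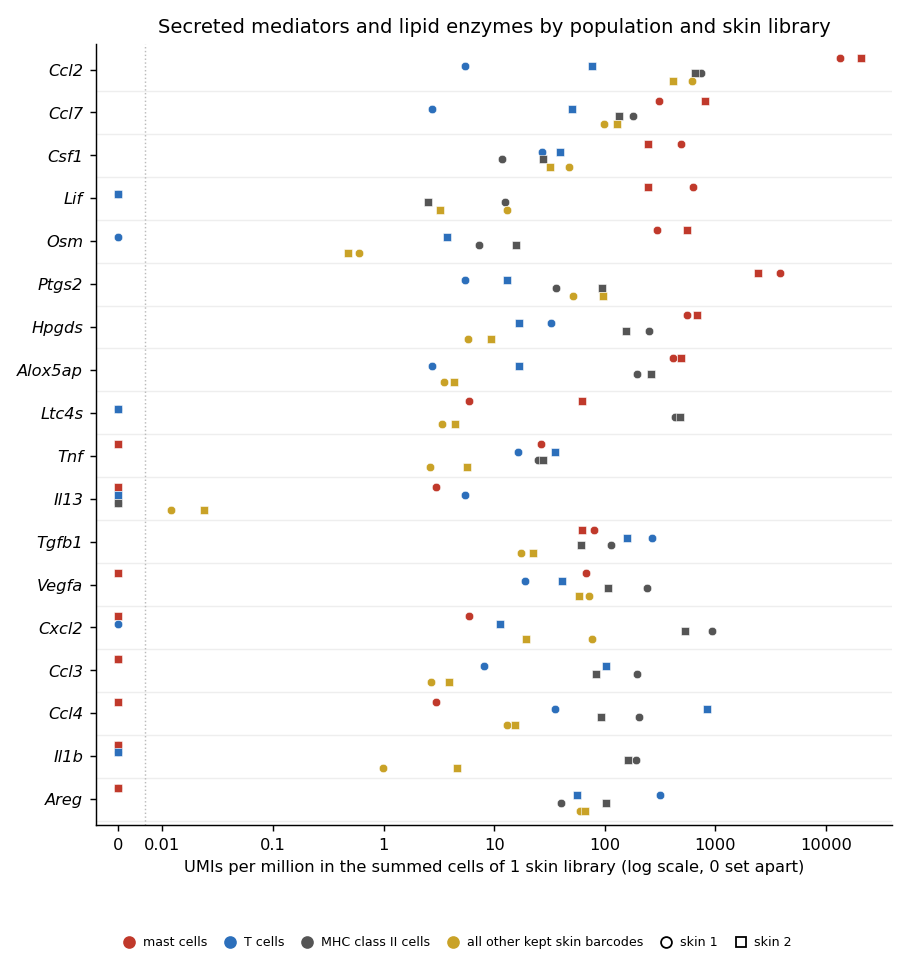
CPM (log scale, 0 set apart at the left) in the summed cells of 1 skin library for 18 mediator and lipid enzyme genes, with circles for skin 1 and squares for skin 2. Mast cells (red) lie to the right for Ccl2, Csf1, Lif, Osm and Ptgs2 and at 0 in at least 1 library for Tnf, Il13, Vegfa, Cxcl2, Ccl3, Ccl4, Il1b and Areg.

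Of the lipid mediator genes, Ptgs2 and Hpgds were called higher than in both other populations, and Ltc4s lower than in MHC class II cells. Ptgs2, the inducible cyclooxygenase, was at 3819.6 and 2411 CPM in mast cells, against 5.43 and 13.1 in T cells and 36.5 and 94.4 in MHC class II cells. Its log2 fold change was 8.46 (SE 0.79, adjusted p = 1.04e-12) against T cells and 5.61 (SE 0.66, adjusted p = 1.23e-09) against MHC class II cells, and both held without skin 1 (adjusted p = 0.00321 and 0.00945). Hpgds, which makes prostaglandin D2, was at 552 and 680.0 in mast cells, against 32.6 and 16.8 in T cells and 253 and 156 in MHC class II cells; its call against MHC class II cells was lost without skin 1 or skin 2 (adjusted p = 0.795 and 0.145). Ltc4s, leukotriene C4 synthase, was at 5.93 and 61.8 in mast cells, against 0 in T cells and 429.9 and 479 in MHC class II cells, a call lost without skin 1 (adjusted p = 0.133). Alox5, the 5-lipoxygenase that starts leukotriene synthesis, had 0 UMIs in mast cells and in T cells, and 5.85 and 10.9 CPM in MHC class II cells. Alox5ap, its activating protein, was at 412 and 495 in mast cells, against 2.71 and 16.8 in T cells. It was not called against MHC class II cells, with log2 fold changes of 0.94 under RLE scaling and 0.90 under DESeq2. Of 9 tested genes 3 were higher than in T cells (Alox5ap, Hpgds and Ptgs2), and 2 were higher (Hpgds and Ptgs2) and 2 lower (Ltc4s and Tbxas1) than in MHC class II cells. The medians were 3.56 and 0.23 (3.64 and 0.31 with the floor).

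Immediate early genes, which are induced by stimulation and by tissue digestion alike, were abundant in mast cells. Jun was at 8271 and 4822 CPM in mast cells, against 1045 and 1493 in T cells, 1216 and 2651 in MHC class II cells and 2539 and 3158 in all other kept skin barcodes. Fos was at 5646 and 3647 in mast cells, against 1007 and 2398 in T cells, 835 and 2983 in MHC class II cells and 2507 and 3915 in the rest, and was not called in either comparison. Nr4a1, an orphan nuclear receptor of the early response, was at 652 and 556 in mast cells, against 67.9 and 289 in T cells and 74.2 and 271 in MHC class II cells, and was called higher in both (log2 fold change 2.48, SE 0.53, and 2.42, SE 0.52). The list counted next holds immediate early and heat shock genes together, with Dnajb1, Hspa8 and Hsph1 among the 15 tested. Of 15 tested genes 4 were higher than in T cells (Egr1, Ier3, Jun and Nr4a1) and 1 than in MHC class II cells, with medians of 1.46 and 0.66, and none of these calls held without skin 1. The part of tissue digestion in the levels of Ccl2, Ptgs2, Lif and the immediate early genes was not tested.

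Single cells of skin 1 ranged from 0 to high counts in mediator genes, and each held UMIs of Mcpt1l1 and Cma1. Cpa3 could not be at 0 in any of them, as the rule used it. Per 10000 UMIs of a cell, Cpa3 had a median of 33.7 with the middle 50% of cells between 23.5 and 53.8, and Mcpt1l1 a median of 92.8 between 51.1 and 148. Ccl2 had a median of 57.5 with the middle 50% between 11.7 and 179, a maximum of 764 and 10 cells at 0. Ptgs2 had a median of 26.8 (10.45 to 47.3) with 3 cells at 0, while Lif was at 0 in 40 cells and Osm in 36. Fos had a median of 11.9 with the middle 50% between 0 and 66.7 and was at 0 in 19 cells, Jun in 2.

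Across the 70 cells, levels per 10000 UMIs of the 3 proteases went together, with Spearman's rho of 0.67 for Cpa3 and Mcpt1l1, 0.64 for Cpa3 and Cma1 and 0.70 for Mcpt1l1 and Cma1. Ccl2 and Ptgs2 gave 0.43 and Lif and Ptgs2 0.46, whereas Ccl2 with Fos gave -0.29, Ccl2 with Mcpt1l1 -0.20 and Hdc with Mcpt1l1 -0.28. These are descriptions over cells of 1 library that share its depth and free RNA, and rho with the cell's UMI total was -0.30 for Cpa3 and 0.21 for Ccl2.

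**Figure D4:**
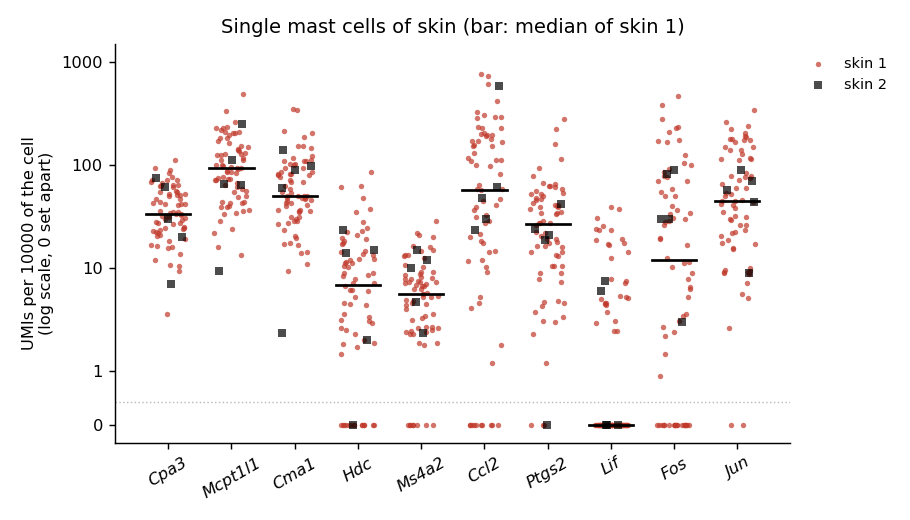
UMIs per 10000 UMIs of each mast cell (log scale, 0 set apart at the bottom) for 10 genes, with red circles for the 70 cells of skin 1, black squares for the 5 cells of skin 2 and a bar at the median of skin 1. Mcpt1l1 and Cma1, which the rule did not use, have no skin 1 cell at 0, whereas Ccl2 has 10 and Fos 19. Cpa3 has none because the rule requires at least 3 UMIs of it.

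The share of mast cells with a UMI of each gene was set beside that of T cells of the same library, which should lack granule genes. In skin 1 a UMI of Ms4a2 was present in 62 of 70 mast cells and 0 of 56 T cells, whose exact 95% upper limit is 6.38%. Hdc was present in 56 of 70 mast cells and 0 of 56 T cells, Fcer1a in 22 and 0, and Mrgprb3 in 19 and 0. Ccl2 was present in 60 of 70 mast cells, 2 of 56 T cells and 103 of 249 MHC class II cells, and Ptgs2 in 67, 2 and 17. Thinned to 2000 UMIs a cell, with 65 mast cells, 54 T cells and 246 MHC class II cells of skin 1 left, Ccl2 was present in 82.5%, 1.16% and 23.0% and Ptgs2 in 90.1%, 1.23% and 2.73%.

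Of 11603 genes 381 (3.28%) were called higher in both comparisons, 713 (6.14%) had both mast cell sums above all 4 sums of the other populations, and 312 (2.69%) met both conditions. The 20 with the largest smaller fold change and at least 50 CPM in both mast cell sums included Cma1, Ms4a2, Tph1, Mcpt1l1, Fcer1a, Mrgprb3 and Hdc, described above. The others were Rgs4, Mlip, Dnase2b, Sgcz, Cracd, Synpr, Calcr, Ntm, Samd13, Trim6, Nxpe2 and the unnamed loci AC103574.1 and AABR07017241.1. Rgs4, a regulator of G-protein signalling, was at 205 and 247 CPM in mast cells and at 0 in both other populations, at least 62.3-fold higher than in T cells and 271-fold higher than in MHC class II cells. Calcr, the calcitonin receptor, was at 199 and 618 in mast cells and had 0 UMIs in T cells and 1 in MHC class II cells. Ntm, an adhesion molecule known from neurons, was at 211 and 680.0 in mast cells, with 0 UMIs in T cells and 2 in MHC class II cells, at least 69.9-fold higher than in T cells. Dnase2b, an acid DNase, was at 160.1 and 124 in mast cells and at 0 in both other populations. Without skin 1, 9 of these 20 could not be tested, and Cma1, Hdc, Mcpt1l1 and Ntm were still called in each comparison, and without skin 2 Mrgprb3, Sgcz and Synpr were not called against T cells. Serpinb1a, an inhibitor of neutrophil-type serine proteases that falls outside this rule and was picked after its level was seen, was at 6056 and 6367 in mast cells, against 10.9 and 18.7 in T cells and 71.6 and 91.9 in MHC class II cells.

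Of 11603 genes 217 (1.87%) were called lower in both comparisons, 3747 (32.3%) had both mast cell sums below all 4 others, and 197 (1.7%) met both conditions. The 10 largest with at least 50 CPM in all 4, of which 6 had 0 UMIs in mast cells, were Rgs9, Ccr7, Irak3, Ptpn18, Prex1, Slc9a9, Coro1a, Snx20, Il7r and Dgkh. In the mast sum of skin 2, 1 UMI equals 61.8 CPM, so a gene at 50 CPM would have under 1 expected UMI. Such a gene can lie below the other sums there by depth alone. For genes near that level the lack of overlap therefore rests mainly on skin 1. The 3747 genes are not a count of genes lower in mast cells. Ccr7, the chemokine receptor that guides leukocytes to lymph nodes, had 0 UMIs in mast cells, against 1078 and 175 CPM in T cells and 115 and 63.5 in MHC class II cells, at least 64.0-fold and 11.7-fold lower. Coro1a, a leukocyte actin-binding protein, was at 2.97 and 0 in mast cells, against 193 and 461 in T cells and 177 and 208 in MHC class II cells. Rgs9 was at 0 in mast cells, at least 18.9-fold lower than in T cells and 27.6-fold lower than in MHC class II cells. Without skin 1, Coro1a was still called against T cells and 0 of the 10 against MHC class II cells.

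The 10 cell cycle genes summed to 599 and 680.0 CPM in mast cells of skin 1 and skin 2, against 187 and 438.5 in T cells and 188 and 443 in MHC class II cells, and Pcna alone had a UMI in the mast cells of skin 2. Their median log2 fold changes were 0.37 against T cells and 0.72 against MHC class II cells (-0.06 and -0.19 with the floor). Pcna, the DNA polymerase clamp, was at 459.7 and 680.0 CPM in mast cells, against 122 and 202 in T cells and 144 and 172 in MHC class II cells, and was called higher in both. Cenpf had UMIs in 4 of the 70 mast cells of skin 1. A single cell held 11 of the 27 UMIs, and without it the sum fell from 80.1 to 48.4 CPM. Another cell, among the barcodes with the top Scrublet scores, held 9. Mki67, the proliferation marker, was at 8.90 and 0 in mast cells, against 5.43 and 56.0 in T cells, and of 10 tested genes Pcna and Cenpf were called higher in each comparison, neither of them without skin 1, and Cenpf against T cells not without skin 2.

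Markers of other cell types were counted in the mast cell sums to different degrees. The 7 keratinocyte genes measured summed to 2485 and 7851 CPM in mast cells of skin 1 and skin 2, against 9412 and 10321 in T cells, 6538 and 17593 in MHC class II cells and 22372 and 27946 in all other kept skin barcodes. Fibroblast genes summed to 89.0 and 185 in mast cells, against 10892 and 6144 in the rest. Macrophage and MHC class II genes summed to 451 and 185 in mast cells, with C1qa, C1qb, C1qc, Mrc1 and Cd68 at 0, against 130 and 841.5 in T cells, 279 and 218 in the rest and 42044 and 24709 in MHC class II cells, a sum that holds genes of their limits. Cd207, the Langerhans cell lectin, was called higher than in T cells (log2 fold change 3.11, SE 1.00, adjusted p = 0.0340) and lower than in MHC class II cells. A single mast cell of skin 1, among the barcodes with the top Scrublet scores, held 21 of the 23 Cd207 UMIs and also 21 of the 27 Cd74 UMIs. The call against T cells was lost when doublet-scored barcodes were left out. T, B and neutrophil genes summed to 65.2 and 0 CPM in mast cells, all of it from the B-cell receptor gene Cd79a, present in 21 of the 70 cells of skin 1 and called higher than in T cells (log2 fold change 3.85, SE 0.76, adjusted p = 0.000154), where it was at 8.14 and 1.87. Cd79a was at 96.8 and 70.2 in MHC class II cells. The other genes of that list, Cd3d, Cd3e, Cd3g, Cd2, Cd79b, Ms4a1, S100a8, S100a9 and Csf3r, were at 0 in mast cells. Of the 2 basophil genes measured, the protease gene Prss34 was at 0, and Il3ra, the IL-3 receptor alpha chain, was at 65.2 and 0 in mast cells, against 2.71 and 7.46 in T cells and 8.40 and 10.9 in MHC class II cells. Il3ra was called higher in both comparisons (log2 fold change 3.85, SE 0.76, and 2.94, SE 0.57; adjusted p = 0.000162 and 8.37e-05), and in neither without skin 1. The part of other cells' RNA in the mast cell sums was not tested. Leaving out barcodes with 20 or more keratin UMIs gave 1195 called genes against T cells and 1698 against MHC class II cells.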

How the data were processed

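Per the submitters' processing notes, 10x Genomics 3′ libraries were processed with Cell Ranger 6.0.1 and STAR; the matrix headers name Cell Ranger 7.0.0. The notes name the builds mRatBN7.2 and GRCh38.p13 with no role. The authors deposited 1 matrix of raw UMI counts per library, 30560 genes by 7945 and 17527 (skin) and 7697 and 7712 (fascia) barcodes, summing to 88334062, 85165728, 95777810 and 83852172 UMIs. Intervals and floors cover counting error only.

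The gene minimum per barcode was 500 and the mitochondrial limit 20% of UMIs. Mast cells, T cells and MHC class II cells were chosen by raw UMI limits, and their counts were summed per library. The design left out populations under 20 cells in a skin library; this was applied to the comparison populations, and the 5 mast cells of skin 2 were kept, with the fit that leaves them out as an alternative added after the data were seen. Sums of skin mast, T and MHC class II cells and of fascia T and MHC class II cells were fitted together in edgeR 4.0.16 (filterByExpr, TMM, quasi-likelihood test, Benjamini-Hochberg adjustment over all genes tested). The library was a block because each skin library holds all 3 populations and each fascia library both comparison populations. The replicate numbers of skin and fascia are not said to mark shared animals. With the library as a block, p-values measure the spread of the sums that is left after shifts between libraries are removed. They do not measure the spread between animals. Most of the sums behind them are of T cells and MHC class II cells, as mast cells gave a sum of 70 cells and a sum of 5. The fit was tested on simulated counts, with 10618 genes passing the filter. It called 24% of 4-fold and 62% of 16-fold changes against T cells and 32% and 67% against MHC class II cells. These are shares of 100 changed genes of each size, of which 84 and 91 passed the filter. Simulated means were pooled over all sums, with 1 common spread and no other difference between populations or libraries. The rates are therefore not the power in these data, and a gene that is not called may still differ. Alternatives used RLE scaling, DESeq2 1.42.0, Scrublet (its marks in fascia, the top-scoring barcodes in skin) and other limits, under Python 3.11.15, R 4.3.3 and SciPy 1.17.1. Upstream sequences came from RefSeq tables of GRCr8.

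The members, gene lists and tests were chosen with earlier results of these data known. By the plan, genes are named when they belong to a list and had at least 20 CPM in both mast cell sums. The plan also named the 20 largest higher and 10 largest lower in both comparisons without overlap. It allowed up to 4 others a list whose low level is a value of interest. More than that were named in some lists, such as the proteases and the cytokines, and called list genes are named as well. The genes called lower among the exocytosis genes are not reported here.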

Additional observations from a re-analysis of the deposited data

How the results depend on the processing

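Called genes against T cells numbered 1144, and 766 with no replicate block, 867 from skin sums alone and 156 to 1022 when 1 library was left out. Against MHC class II cells they numbered 1499, and 902 with no replicate block (430 higher, 472 lower), 985 from skin sums alone and 146 to 1618 when 1 library was left out. The lowest counts were those without skin 1, where the mast cell arm was 5 cells, and 79 and 73 of the genes called there were called in the same direction with all libraries. RLE scaling gave 1256 and 1643, DESeq2 1178 and 1421, no filter on low counts 1128 and 1539, a minimum of 10 Cpa3 UMIs 1103 and 1411, a 10% mitochondrial limit 1126 and 1496, leaving out doublet-scored barcodes 856 and 1196, leaving out barcodes with 20 or more keratin UMIs 1195 and 1698, and leaving out the mast sum of skin 2 (chosen after seeing the data) 926 and 1253. In that last fit 12 of the 69 named genes called against T cells and 9 of 82 against MHC class II cells were not called.

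Il4r and Lmo4 against MHC class II cells ranged from -1.56 to 1.82 and from -0.94 to 1.63 (log2 fold change) when 1 library was left out, negative without skin 1; the cause was not tested. DESeq2 did not call 14 of the 69 named genes called against T cells and 23 of 82 against MHC class II cells, among them Ms4a2, Tph1 and Fcer1a, whose comparison populations are at 0. The share difference between skin and fascia ranged from 0.0157 to 0.924 percentage points when 1 library was left out. Within the limits tried (1 or 10 Cpa3 UMIs, 200 or 1000 genes, 10% mitochondrial UMIs, no collagen or Cd3 limit, doublet-scored barcodes left out) it was 0.346 to 0.589. Depth limits the mast cells of skin 2, where a gene at 0 may lie at up to 3 UMIs.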
